A study of Caenorhabditis elegans with 2 samples.

Results

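The genes examined were 6 genes of translation elongation in Caenorhabditis elegans, eef-1A.1, eef-1A.2, eef-1B.1, eef-2, iff-1 and iff-2, out of 19973 protein-coding genes on the nuclear chromosomes. They were chosen by the regions that these data place at them (signal rank, summit position, E-box and agreement between replicates), so those values are given as a description and carry no test. The data were ChIP-seq region lists from whole L3 larvae of strain OP355, males and females pooled, which carries the mutation unc-119(tm4063) on chromosome III and the integrated transgene wgIs355 encoding an eGFP-tagged transcription factor. There was 1 kind of sample in 2 biological replicates, and each list was called against a control alignment. The labels name the factor as mdl-1 (antibody and strain) and as ZK337.2 (description), so it is called the tagged factor here. Neither the promoter that drives the transgene nor the read depth is stated in those labels, and a signal averaged over whole larvae does not show in which cells a region was bound.

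During elongation, eEF1A brings each aminoacyl-tRNA to the ribosome as a complex with GTP, the eEF1B complex exchanges the GDP left on eEF1A for GTP, and eEF2 moves the ribosome along the mRNA. The factor eIF5A, once named for initiation, binds ribosomes that stall and carries hypusine, a modified lysine made by deoxyhypusine synthase and deoxyhypusine hydroxylase. In C. elegans, eef-1A.1 and eef-1A.2 encode eEF1A, eef-1B.1 encodes an exchange factor subunit, eef-2 encodes eEF2, and iff-1 and iff-2 encode eIF5A, of which iff-1 is known for its role in the germ line and iff-2 in the soma. Mad-like proteins such as MDL-1 bind the E-box CACGTG with a Max-like partner.

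The summit sequences of 5 of the genes are shown first because none of them holds the E-box; that of eef-2 is not shown. Each line gives WBcel235 sequence within 100 bp of the highest summit at the gene, 5′ to 3′ on the strand of the gene, without annotated UTR bases. Capitals mark GAGAGA and GGCGGG, as well as the E-box variant CACGCG and the sequence GAGACG, each on either strand. The stretches are chrX:7823151-7823351 (plus strand) for eef-1A.2, chrII:8561368-8561493 (minus strand) for iff-2, chrIII:7973392-7973592 (minus strand) for eef-1B.1, chrIII:6971994-6972194 (minus strand) for eef-1A.1 and chrIII:9747194-9747354 (minus strand) for iff-1. In every line the summit is base 101.
eef-1A.2: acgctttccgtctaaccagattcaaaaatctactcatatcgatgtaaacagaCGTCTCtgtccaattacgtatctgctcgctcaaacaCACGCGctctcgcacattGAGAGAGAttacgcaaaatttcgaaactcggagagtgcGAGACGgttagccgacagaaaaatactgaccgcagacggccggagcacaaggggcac
iff-2: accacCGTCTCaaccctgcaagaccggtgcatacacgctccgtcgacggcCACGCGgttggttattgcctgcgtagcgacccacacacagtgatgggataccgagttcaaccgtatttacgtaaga
eef-1B.1: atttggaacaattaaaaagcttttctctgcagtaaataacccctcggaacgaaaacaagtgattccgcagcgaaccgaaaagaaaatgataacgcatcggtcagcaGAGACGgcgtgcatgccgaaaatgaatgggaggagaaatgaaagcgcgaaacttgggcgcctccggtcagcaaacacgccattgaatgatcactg
eef-1A.1: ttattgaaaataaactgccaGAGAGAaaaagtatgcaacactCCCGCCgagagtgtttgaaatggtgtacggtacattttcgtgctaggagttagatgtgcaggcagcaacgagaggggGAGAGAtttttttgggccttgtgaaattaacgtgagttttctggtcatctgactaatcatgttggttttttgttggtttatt
iff-1: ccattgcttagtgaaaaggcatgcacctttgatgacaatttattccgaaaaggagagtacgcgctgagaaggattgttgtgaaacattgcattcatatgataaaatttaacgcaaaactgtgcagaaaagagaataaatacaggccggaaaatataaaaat

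Regions that passed the threshold on irreproducible discovery rate (IDR), a measure of how well regions keep their rank between lists, lay at 5 of the 6 genes, all but iff-1. A place in that list did not mean that both replicates listed the region: 82 of 1015 had no replicate 1 summit within 200 bp. Over all protein-coding genes, 4.61% (920 of 19973) had an IDR summit inside the gene or within 2000 bp upstream. The 6 genes were picked with such regions in view, so nothing is read from that contrast. Their windows of gene plus upstream sequence were 3005 to 5422 bp long with a median of 3840 bp. For all genes the median was 4027 bp, with quartiles of 3215 and 5636 bp. The IDR list held 1015 regions and equalled the highest regions of the pooled list, so the 5 genes also had 1 of the 5000 highest pooled summits (19.6% of all genes). The gene iff-1, at pooled rank 5649, fell outside that cut. Among the 10000 highest pooled regions all 6 genes had a summit, as did 35% of all genes. At the whole pooled list of 30000 regions all 6 genes had a summit, as did 69.9% of all genes.

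Signal, the peak caller's score without a stated scale, divided the 5 genes into a high pair and a group of 3 nearer the end of the list. The gene eef-1A.2 had a pooled signal of 125 and rank 43, above 95.8% of IDR regions, and iff-2 had 98.6 and rank 76, above 92.5%. The genes eef-2 (39.3, rank 513) and eef-1B.1 (37.7, rank 558) lay close to the IDR median of 39.4. The gene eef-1A.1 had 29.9 at rank 805. Thus 1 of the 2 eEF1A genes and 1 of the 2 eIF5A genes had the high values. The lowest IDR signal was 25.9. Nearest to the end of the IDR list on its inner side was eef-1A.1, at rank 805 of 1015, and the gene outside it, iff-1, lay far beyond the end with a pooled signal of 10.8 at rank 5649. For scale, the highest region of the list, upstream of mdl-1, had a signal of 539 and ranked 1 in both replicates. Some labels name mdl-1 as the factor that the transgene encodes, and whether transgene sequence adds to the signal there was not tested.

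**Figure D1:**
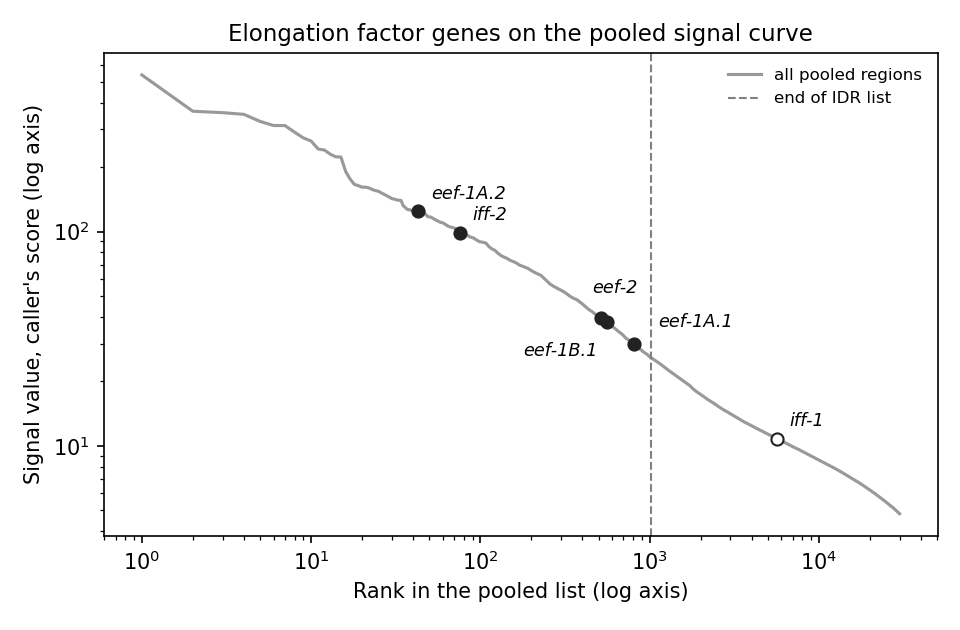
Signal value (caller's score, log axis) against rank in the pooled list (log axis) for all pooled regions, with the highest region at each elongation factor gene as a point; filled points are IDR regions and the open point is not. eef-1A.2 and iff-2 sit at ranks 43 and 76, eef-2, eef-1B.1 and eef-1A.1 between ranks 513 and 805, and iff-1 at rank 5649.

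The replicates were then set side by side, since the pooled list mixes them. The high pair was high in each. The eef-1A.2 region ranked 58 in replicate 1 (signal 29.9) and 39 in replicate 2 (signal 99.0). The iff-2 region ranked 127 in replicate 1 (signal 22.0) and 85 in replicate 2 (signal 72.9). Signals are not compared between the lists, which are of different length (15898 regions in replicate 1 and 30000 in replicate 2) and have no common scale.

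The other genes ranked lower in replicate 1 or were missing from it. The eef-2 region ranked 1319 in replicate 1 (signal 7.04), outside its 1015 highest regions, and 552 in replicate 2 (signal 28.9). No replicate 1 region had its summit within 200 bp of those at eef-1A.1, eef-1B.1 or iff-1, nor anywhere in these genes or their upstream windows. In replicate 2 the same places ranked 638 (signal 26.5) at eef-1A.1, 429 (signal 34.2) at eef-1B.1 and 3460 (signal 10.96) at iff-1. The lowest signal that replicate 1 lists is 2.00. Among all IDR regions, 82 of 1015 had no replicate 1 summit within 200 bp. They made up 14.8% of the lower-ranked 508 IDR regions and 1.38% of the others, and eef-1A.1 and eef-1B.1 are among the lower-ranked ones. All 1015 had a replicate 2 summit within 200 bp.

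Counted over the 1015 highest regions of each replicate alone, 2 of the 6 genes had a summit in replicate 1 (eef-1A.2 and iff-2), against 4.58% of all genes. In replicate 2 the count was 5 of 6, against 4.49% of all genes. Over the whole lists it was 3 of 6 in replicate 1, where 50.4% of all genes had a summit, and 6 of 6 in replicate 2, where 70.7% did. With 2 libraries the lists show that the replicates differ at these genes but give no spread for either value.

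**Figure D2:**
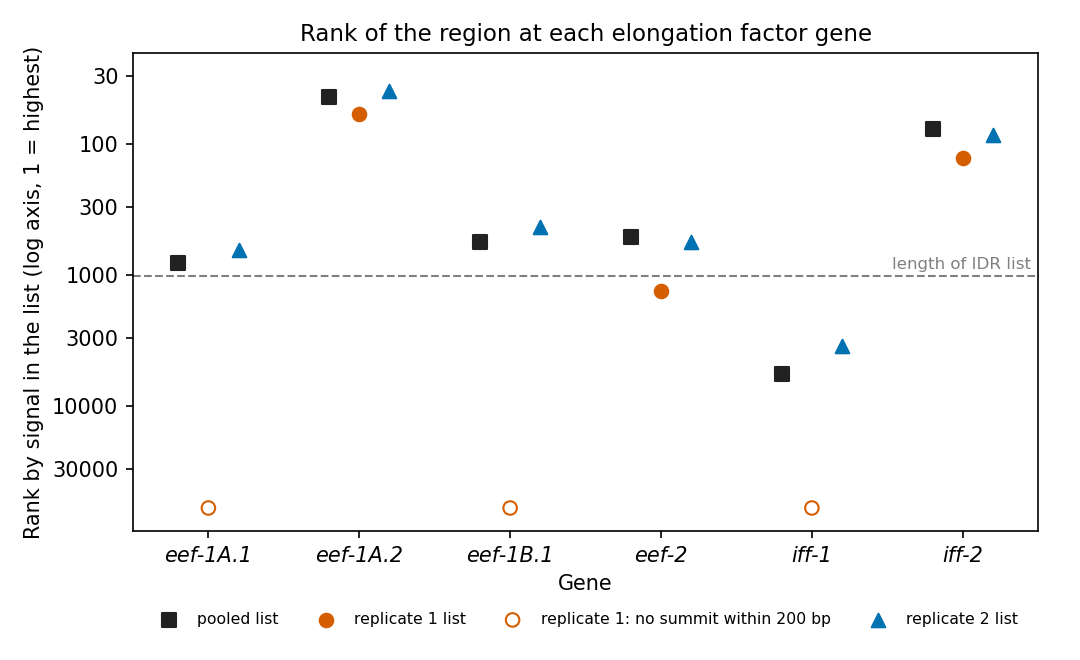
Rank by signal (log axis, 1 = highest at the top) of the region at each elongation factor gene in the pooled, replicate 1 and replicate 2 lists; open circles at the bottom mark genes with no replicate 1 summit within 200 bp, and the dashed line marks rank 1015. All 3 lists rank eef-1A.2 and iff-2 within the first 127, while eef-1A.1, eef-1B.1 and iff-1 have no replicate 1 region.

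In these lists the summits lay upstream of the annotated 5′ end at all 6 genes, in sequence annotated as intergenic. The offsets were 14 bp at eef-2 (WBGene00001167, chromosome I, 9163531 to 9166952, plus strand), 26 bp at iff-2 (WBGene00002065, chromosome II, 8559375 to 8561367, minus strand) and 61 bp at iff-1 (WBGene00002064, chromosome III, 9745862 to 9747193, minus strand). They were 106 bp at eef-1B.1 (WBGene00018846, chromosome III, 7972382 to 7973386, minus strand), 382 bp at eef-1A.1 (WBGene00001168, chromosome III, 6970026 to 6971712, minus strand) and 403 bp at eef-1A.2 (WBGene00001169, chromosome X, 7823654 to 7825769, plus strand). Measured from these gene ends, the 2 eEF1A summits were the farthest upstream. The eef-1A.2 summit lay 1.08 Mb from the 5′ end of mdl-1 on the same chromosome. Of the 920 genes with an IDR summit in the window, 326 (35.4%) had the highest one 1 to 500 bp upstream and 27.5% had it inside the gene. Summit position was among the values used to choose the 6 genes, so nothing is read from a contrast with that share. Other translation genes named below also had their IDR summit upstream. It was 57 bp upstream at eef-1G, 131 bp at rps-12, 157 bp at hars-1, 265 bp at rpl-3 and 349 bp at rpl-15. At rpl-35 it was 436 bp and at eif-3.G 1736 bp upstream.

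Annotated 5′ ends are an uncertain mark in this animal, where many mRNAs receive a trans-spliced leader that removes the original start. Measured from the first annotated start codon instead, the summit was 101 bp upstream at iff-1, 137 bp at eef-2, 222 bp at eef-1B.1, 414 bp at eef-1A.1, 426 bp at eef-1A.2 and 438 bp at iff-2. Of the 2 annotated iff-2 transcripts, which share a start codon, the longer begins 26 bp and the shorter 429 bp from the summit. The third annotated transcript of eef-2 starts 465 bp downstream of the summit. The other annotated transcripts of iff-1 start 650 and 1097 bp downstream of its summit, in each case at their start codon.

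Where both replicates had a summit, each was compared with the pooled summit, which comes from both replicates. At eef-1A.2 the pooled summit was 11 bp from that of replicate 1 and 3 bp from that of replicate 2. At eef-2 the distances were 23 bp and 0 bp, and at iff-2 they were 76 bp and 8 bp. The medians over all IDR regions with such a summit were 27 bp and 3 bp, so the iff-2 summit in replicate 1 was the more displaced. The IDR regions at eef-1A.2 and iff-2 were 206 bp and 161 bp wide and those at eef-1A.1, eef-1B.1 and eef-2 were each 364 bp, the median of the list. Only 112 of the 1015 IDR regions were narrower than that median. The median width was 233.5 bp among the 100 IDR regions of highest signal.

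Other summits in the windows were few. The pooled list had no second summit in the windows of eef-1A.1, eef-1A.2, eef-1B.1, iff-1 or iff-2. Replicate 2 listed 1 weak summit inside each of eef-1A.1 (rank 17767), eef-1B.1 (rank 21800) and iff-2 (rank 19912), none of which replicate 1 or the pooled list had. The longest gene, eef-2, had 3 further pooled summits in its window, those at ranks 13869 and 21326 inside the gene and that at rank 16702 upstream of it. Replicate 1 had 3 further summits there (ranks 3356 and 12206 inside, 6487 upstream) and replicate 2 had 2 (rank 28209 inside, 24891 upstream).

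**Figure D3:**
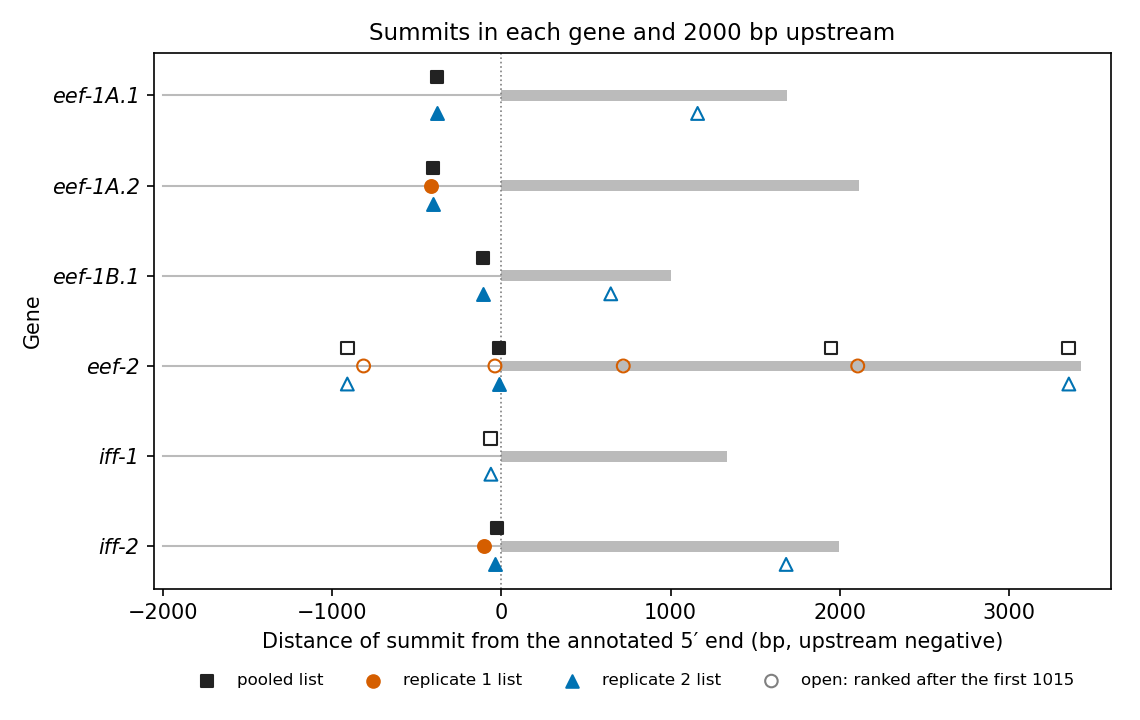
Position of every listed summit in each elongation factor gene and 2000 bp upstream, as distance in bp from the annotated 5′ end (upstream negative); grey bars are gene bodies, squares the pooled list, circles replicate 1 and triangles replicate 2, filled where the rank is within the first 1015 of that list. Filled marks lie between 403 and 14 bp upstream in the pooled list, and the marks inside genes are open.

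Several of these summits also lie upstream of another gene. At 4 of the 6 genes the summit was within 500 bp upstream of the 5′ ends of both the elongation factor gene and a protein-coding gene on the other strand. By the same rule 14.9% of the 302 IDR summits that lie within 500 bp upstream of any protein-coding gene had such a pair, and 10.8% of all protein-coding genes had one at a point 100 bp upstream. The 4 genes include iff-1, whose summit is not that of an IDR region, so the sets are not alike. At eef-1A.1 the other gene, rfc-4, a subunit of the DNA replication factor C complex, was nearer to the summit: the 5′ end of eef-1A.1 was 382 bp away and that of rfc-4 159 bp, and that of the annotated microRNA gene cel-mir-5549 only 9 bp. At eef-1B.1 it was aco-2, which encodes mitochondrial aconitase, with 106 bp to the 5′ end of eef-1B.1 and 225 bp to that of aco-2. The 5′ end of the non-coding RNA gene F54H12.9 was 165 bp from the eef-1B.1 summit. At eef-2 it was clsp-1, with 14 bp to the 5′ end of eef-2 and 251 bp to that of clsp-1. At iff-1 it was cdk-1, the mitotic cyclin-dependent kinase gene, with 61 bp to the 5′ end of iff-1 and 218 bp to that of cdk-1. At iff-2 the divergent gene, F54C9.14, was 909 bp from the summit. At eef-1A.2 no other protein-coding 5′ end lay within 2000 bp. Neither gene of the high pair thus had a divergent protein-coding 5′ end within 500 bp of its summit. The 5′ end of the non-coding RNA gene R03G5.8 was 274 bp from the eef-1A.2 summit, nearer than the 403 bp to that of eef-1A.2. Which gene of a pair a region belongs to was not tested.

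The E-box CACGTG was within 100 bp of the summit at 0 of the 6 genes, eef-2 included. The share was 29.6% of IDR regions (300 of 1015) and 4.23% of windows of the same 201 bp centred 100 bp upstream of all 19973 protein-coding 5′ ends. The nearest CACGTG to the summit was 1579 bp away at eef-1A.1, 2549 bp at iff-2, 3591 bp at eef-2, 4943 bp at iff-1, 5700 bp at eef-1B.1 and 13785 bp at eef-1A.2. The median over IDR summits was 863.5 bp, and 39.0% of them were farther than 1500 bp. From the point 100 bp upstream of each protein-coding 5′ end the median was 2162.5 bp. With 6 genes, a count of 0 says little about the share of such genes that have the motif.

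Other short sequences, searched on both strands within 100 bp, were held by some of the genes. The variant CACGCG was centred 10 bp from the summit at eef-1A.2 and 48 bp from it at iff-2, the 2 genes of highest signal. It was in 16.0% of IDR windows and 3.41% of promoter windows. GAGAGA was at eef-1A.1 and eef-1A.2 (57.4% of IDR windows and 16.3% of promoter windows). It had 2 overlapping copies 9 and 11 bp from the eef-1A.2 summit, and copies 22 and 78 bp from the eef-1A.1 summit. GGCGGG was at eef-1A.1 alone (10.05% of IDR windows and 4.84% of promoter windows), and CTGCGTC at none (22.6% and 3.25%). Of all 6-letter sequences, GAGACG was picked out after the values were seen. It was at 3 of the 6 genes, eef-1A.2, eef-1B.1 and iff-2, and in 36.9% of IDR windows and 7.56% of promoter windows. Its centre was 9 bp from the eef-1B.1 summit, 46 and 47 bp from the eef-1A.2 summit (2 copies) and 93 bp from the iff-2 summit. The GC content of the summit windows was 48.8% at eef-1A.2, 47.8% at iff-2, 46.8% at eef-1B.1, 42.3% at eef-2, 40.8% at eef-1A.1 and 32.8% at iff-1. The median was 45.8% for IDR windows and 32.8% for promoter windows, and that of iff-1 equalled the promoter median.

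Paralogs can share reads, so the sequences were compared. The coding sequences of eef-1A.1 and eef-1A.2, each 1389 bases long, were 94.0% identical in a global alignment and shared 94 stretches of 36 bases. Those of iff-1 and iff-2 were 65.4% identical and shared 0. No 36-base stretch of any of the 6 summit windows occurred elsewhere in the nuclear genome. Inside the genes, 5.81% of the stretches in eef-1A.1, 4.61% in eef-1A.2 and 1.55% in eef-1B.1 did, and none in eef-2, iff-1 or iff-2. The windows upstream of the 2 eEF1A genes thus had no such stretch in common, and the genes themselves did. The length of the reads is not stated in the labels.

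The other genes of translation were read from lists by the same windows. Among 5 other cytosolic elongation genes, 1 had an IDR summit, eef-1G, an exchange factor subunit that partners eef-1B.1, with a signal of 26.6 at pooled rank 978 (5700 in replicate 1, 1158 in replicate 2) and its summit 57 bp upstream. The remaining 4 were outside the IDR list. They were the eEF2 kinase gene efk-1 (rank 3782), the exchange factor subunit gene eef-1B.2 (3964), and the hypusine enzyme genes dohh-1 (16900) and dhps-1 (23728), all ranks in the pooled list. The enzymes that modify eIF5A thus ranked far below iff-2. No IDR summit was at the 4 mitochondrial elongation factor genes (the best pooled rank was 2094, at tufm-1) or the 2 release factor genes.

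Of 32 initiation factor genes, 1 had an IDR summit (3.12%), eif-3.G, an eIF3 subunit gene, with its summit 1736 bp upstream and a signal of 34.6. Of 31 aminoacyl-tRNA synthetase genes, 1 had one (3.23%), hars-1, for histidyl-tRNA synthetase, with a signal of 26.5. That region had no replicate 1 summit within 200 bp and held a CACGTG within 100 bp of its summit. Both shares are near the 4.61% of all genes. Of 81 ribosomal protein genes, 15 had one (18.5%), led by rpl-15 with a signal of 125, then rpl-3 with 103.5, rps-12 with 77.3 and rpl-35 with 65.2. CACGTG was not within 100 bp of the summit at eef-1G, eif-3.G or the ribosomal protein genes named here. Its absence was thus not particular to the elongation factor genes chosen. Not all of the other ribosomal protein genes with an IDR summit lacked it. Among the 5000 highest pooled regions the counts were 3 of 5 other cytosolic elongation genes, 1 of 4 mitochondrial elongation factor genes, 0 of 2 release factor genes, 14 of 32 initiation factor genes, 7 of 31 aminoacyl-tRNA synthetase genes and 40 of 81 ribosomal protein genes, against 19.6% of all genes. No test was made between these lists.

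**Figure D4:**
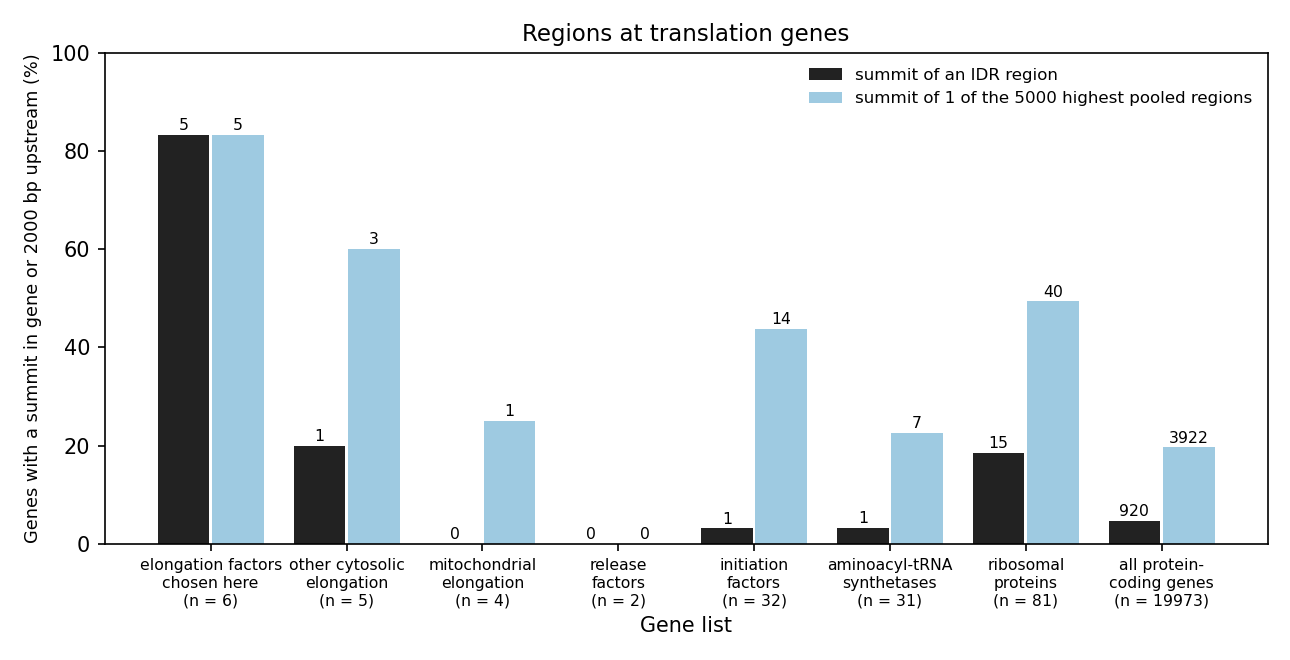
Share of genes (%) in each translation list with a summit in the gene or 2000 bp upstream, for IDR regions (dark bars) and for the 5000 highest pooled regions (light bars), with the number of genes above each bar; the elongation factors on the left were chosen on such regions. IDR summits were at 5 of 6 chosen genes, 15 of 81 ribosomal protein genes and 920 of 19973 protein-coding genes.

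Genes of like rank in the 2 replicate lists were looked up for the high pair. Nearest to eef-1A.2 was K11H12.1 (ranks 55 and 46 in replicates 1 and 2, a distance of 0.0753 in log10 rank over the 2 lists), which shares its region, at pooled rank 42, with rpl-15. Nearest to iff-2 was hxk-1, a hexokinase gene (ranks 124 and 87, a distance of 0.0145).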

How the data were processed

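Binding was measured by ChIP-seq in 2 biological replicates of 1 group. The authors deposited region lists in build ce11, which is WBcel235; region ends lay within the reference chromosomes. Each replicate list, per the deposited descriptions, came from 1 replicate alignment and a control, the pooled list from both replicates and that control, and the IDR list from those 3 lists. Regions were called by the authors, so the signal value is a deposited score of the peak caller, used here only to rank regions within a list. For the aligner, caller, cutoffs and depth no source was found: not given in the sources used here. Lists in build ce10 were not used.

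Genes came from Ensembl release 115. A summit (region start plus deposited offset, 1-based) was assigned to a gene when inside it or within 2000 bp upstream. Motifs were matched exactly on both strands. Coding sequences were aligned with Biopython 1.88 (match 1, mismatch -1, gap opening -3, extension -0.5). Calculations used Python 3.11.15, scipy 1.17.1, numpy 2.4.6, pandas 2.3.3 and, for figures, matplotlib 3.10.9. The window and motif steps were tested on simulated data. No statistical test was made, since the genes were chosen on these values and there is 1 group. The genes, lists and motifs were chosen with earlier results of these data known. Named genes were the 6, the other translation genes with an IDR summit (the 4 of highest signal for long lists), the nearest neighbours by 5′ end, the genes of most like replicate ranks, and mdl-1; genes outside the IDR list in the elongation lists were named after their values were seen. Protein sequences were not used here. Symbols of the lists that were not matched (nero-1, gfm-2 and erfa-1.1) were left out.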

Additional observations from a re-analysis of the deposited data

How the results depend on the processing

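Of 23 alternative settings for counts of the 6 genes, 20 left the count within 1.5 times its value and 3 did not. This tally does not measure robustness, since several settings could not move the count that far. A count of 5 can rise only to 6, and a fall to 4 is also within that factor. The IDR summits at these genes lay 14 to 403 bp upstream, so upstream windows of 500 bp or more were bound to hold them. The count of genes with an IDR summit was 5. It stayed 5 with upstream windows of 500, 1000 or 5000 bp, while the share of all genes, 4.61% as reported, was 3.04%, 3.62% and 7.0%. It also stayed 5 with only the upstream window and 200 bp downstream of the 5′ end (3.57% of all genes), and with overlap of a region in place of its summit (4.87%). It was 4 when a summit went only to the nearest protein-coding 5′ end (3.27% of all genes), which gives the eef-1A.1 region to rfc-4. With the higher-ranked 507 IDR regions it was 2, eef-1A.2 and iff-2 (2.33% of all genes), with eef-2 at rank 513. No IDR list can be made from 1 replicate, so leaving out 1 replicate means the 1015 highest regions of the other. The count was then 2 without replicate 2 (4.58% of all genes) and 5 without replicate 1 (4.49%). In the 507 highest regions of replicate 2, a length chosen after seeing the data, 3 genes had a summit in place of 5 (2.34% of all genes against 4.49%). CACGTG was at 0 of the 6 genes within 50 or 200 bp of the summit and anywhere in the region, against 22.3%, 33.1% and 32.3% of IDR regions. No paired analysis was possible because there is 1 group of samples. Depth is unknown, so a region missing from replicate 1 cannot be told apart from one below its listing limit.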
